A study of Mus musculus with 9 samples.

Results

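Major urinary proteins are small secreted lipocalins, barrel-shaped carriers that hold volatile molecules in a central pocket. In mice they are made mainly by hepatocytes, released into the blood, filtered by the kidney and excreted in urine, where they bind and slowly release pheromones. Their hepatic mRNA is higher in males than in females and depends on pulsatile growth hormone acting through STAT5, with further input from androgens, thyroid hormone and glucocorticoids. The 5 genes described here are Mup1, Mup3, Mup7, Mup20 and Mup21, which are 5 of the 24008 genes listed in the count table and 5 of the 14379 that passed the filter on low counts. They were chosen on values measured in these same livers, since Mup7 stood among the genes with the largest difference between F4MKO+FSTL1 and F4MKO. Their levels and fold changes are therefore given as a description, with standard errors but with no p-value for any one of them, and counts of calls over them are set beside the share over all genes with nothing read from them.

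Liver RNA was sequenced from 9 mice, with 1 library per mouse and 3 mice in each of 3 groups. All mice were fed a high-fat, high-carbohydrate diet with cholesterol and a fructose-glucose solution, which models nonalcoholic steatohepatitis (NASH). A start at 8 weeks of age is stated for the study's wild-type mice, and no separate age is given for these groups. The study's methods give the diet as 24 weeks in the description of the experiment and as 12 weeks in the description of virus delivery, and 4 weeks from virus to collection. The groups served to ask what loss of the transcription factor IRF4 in skeletal muscle does to the liver, and what return of the secreted muscle protein FSTL1 changes. Flox mice, which the labels call WT, carried floxed Irf4 alleles without Cre on the C57BL/6J background. F4MKO mice carried the same alleles with Myl-Cre, which deletes Irf4 in skeletal muscle. F4MKO+FSTL1 mice were F4MKO mice whose gastrocnemius received AAV8 carrying Flag-tagged FSTL1 under the muscle MCK promoter. The study gave AAV-GFP to the other two groups, although the labels name no vector for them. Because the deletion was in muscle, hepatic Irf4 does not check the genotype.

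All 9 libraries looked male, with 0 to 3 reads of Xist and 2620 to 3407 summed reads of the Y-linked genes Ddx3y, Eif2s3y, Kdm5d and Uty. This matters because Mup mRNA differs between the sexes, and the study describes both male mice and experiments in both sexes. Of these 4 Y-linked genes, 0 were called in any of the 3 comparisons by edgeR or DESeq2, and 1 had an unadjusted p under 0.05 in 1 comparison. Total counts ran from 20656976 to 24322984 reads per library. Replicate 2 of F4MKO stood apart from the rest in its Mup values, so the fold changes of the members and the counts for most gene lists in comparisons with F4MKO are also given without it. Values are CPM, the reads of a gene as a share of the library scaled by TMM, a factor that evens out differences in library make-up. In whole liver, fewer cells of a type and less RNA per cell cannot be told apart.

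The Mup genes lie in 1 cluster on chromosome 4 (mm10, identical in coordinates to GRCm38). In GENCODE vM21, Mup7 is at chr4:60066469-60070475, Mup1 at chr4:60498012-60501960, Mup20 at chr4:62050234-62054158, Mup3 at chr4:62083476-62087342 and Mup21 at chr4:62147932-62150863, all on the minus strand. Each is protein coding, with 7 exons in its principal transcript, except Mup21 with 6. Mup7 and Mup1 belong to the central array of near-identical copies. Mup20, Mup3 and Mup21 lie at the far end of the cluster, among diverged members. Mup20 encodes darcin, a pheromone of male urine that draws females, and circulating MUP1 has been tied to glucose and lipid metabolism.

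How alike the genes are decides how far their reads can be told apart, so the first 90 coding bases of each, all within 1 exon, are shown, and capitals mark bases with no identical Mup7 base opposite them in a gapped alignment of the coding sequences. They were read 5′ to 3′ from the GENCODE vM21 transcripts.
Mup7 (chr4:60070211-60070300, minus strand): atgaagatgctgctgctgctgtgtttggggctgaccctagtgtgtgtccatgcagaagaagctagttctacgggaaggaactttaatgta
Mup1 (chr4:60501760-60501849, minus strand): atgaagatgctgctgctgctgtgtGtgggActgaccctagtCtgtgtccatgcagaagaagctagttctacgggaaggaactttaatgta
Mup20 (chr4:62053960-62054049, minus strand): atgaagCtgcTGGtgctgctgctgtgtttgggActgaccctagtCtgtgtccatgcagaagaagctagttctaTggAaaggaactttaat
Mup21 (chr4:62150663-62150752, minus strand): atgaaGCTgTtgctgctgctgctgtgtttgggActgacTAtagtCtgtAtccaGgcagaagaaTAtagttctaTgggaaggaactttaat
Mup3 (chr4:62087142-62087231, minus strand): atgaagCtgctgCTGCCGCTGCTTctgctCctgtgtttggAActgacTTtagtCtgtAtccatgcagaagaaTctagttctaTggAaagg

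In this stretch, Mup1 had 3 marked bases, Mup20 had 8, Mup21 had 13 and Mup3 had 23. Over the whole coding sequence, Mup1 and Mup7 were 98.9% identical and differed at 6 positions. Mup20 was 90.1% identical to Mup7, Mup21 83.6% and Mup3 82.3%, while Mup3 and Mup21 were 94.7% identical to each other. Among the 15 coding genes Mup1, Mup2 and Mup7 to Mup19, the 105 pairs were 98.3% to 99.8% identical. A read of 150 bases, the sequenced length, can therefore match several genes of the array.

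Of the 150-base windows in the principal Mup7 transcript, 77.5% occurred unchanged in a transcript of at least 1 of 15 other Mup genes. For Mup1 this share was 82.5%, with 14 other Mup genes. For Mup20 it was 31.1%, and the only other gene was the pseudogene Mup-ps19. No window of Mup3 or Mup21 occurred in another gene. By this search of exact windows in annotated transcripts, Mup3, Mup21 and, with that exception, Mup20 have sequence of their own. Shorter reads and reads aligned with mismatches were not searched for, so the counts of these genes may still hold shared reads. The counts of Mup7 and Mup1 are uncertain as values of single genes, because the sources used here do not state how reads with several matches were counted. No exon of the 5 genes overlapped an exon of another annotated gene.

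The members moved together in part, so the 250 bases before the annotated start site are shown for the members that the promoter table holds, Mup7, Mup3 and Mup21 (RefSeq, GRCm38.p6). Capitals mark the motif TATATAAG, a TATA-like element.
Mup7 (chr4:60070476-60070725, minus strand): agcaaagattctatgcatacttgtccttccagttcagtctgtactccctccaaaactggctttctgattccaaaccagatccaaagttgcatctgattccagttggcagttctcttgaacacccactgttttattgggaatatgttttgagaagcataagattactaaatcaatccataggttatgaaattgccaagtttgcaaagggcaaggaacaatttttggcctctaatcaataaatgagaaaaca
Mup3 (chr4:62087318-62087567, minus strand): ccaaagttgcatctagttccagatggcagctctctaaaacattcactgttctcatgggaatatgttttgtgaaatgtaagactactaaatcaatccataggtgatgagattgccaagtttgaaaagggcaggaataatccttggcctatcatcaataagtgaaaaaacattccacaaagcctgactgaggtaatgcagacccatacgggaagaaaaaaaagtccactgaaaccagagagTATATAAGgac
Mup21 (chr4:62150842-62151091, minus strand): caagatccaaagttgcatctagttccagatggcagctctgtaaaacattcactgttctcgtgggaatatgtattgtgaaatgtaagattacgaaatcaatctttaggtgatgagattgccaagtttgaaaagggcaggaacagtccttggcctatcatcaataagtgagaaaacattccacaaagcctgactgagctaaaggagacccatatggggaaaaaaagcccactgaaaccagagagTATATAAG

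TATATAAG, searched on both strands, was found in the windows of Mup3 and Mup21 and not in that of Mup7. The Mup7 window stops at its annotated start site, in letters (gagaaaaca) that in the Mup21 window come before TATATAAG. Whether Mup7 carries the motif past that site was not tested. The motif was found in 9 of the 14 windows of coding Mup genes and in 0.944% of 32536 promoter windows of the same length. This count also depends on the annotated start sites. The Mup11 window, for example, ends at agagagta, letters that run on into TATATAAG in Mup3 and Mup21. The letters TTCNNNGAA, the core of STAT5 sites, were in 0 of the 14 Mup windows and in 7.04% of all windows. TTGCNNAA, which fits many C/EBP sites, was in 0 of the 14 and in 9.57% of all. These searches say only which letters the 250 bases hold.

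Mup7 had the widest range of the members. Its level was 1264, 649.8 and 1882 CPM in Flox replicates 1 to 3, and 191, 6.78 and 259 CPM in F4MKO. In F4MKO+FSTL1 it was 3634, 5787 and 5217 CPM. The 3 groups did not overlap, with F4MKO lowest and F4MKO+FSTL1 highest. The value of F4MKO replicate 2 rested on 162 reads. The log2 fold change was -3.06 ± 0.87 (SE) in F4MKO vs Flox, 5.0 ± 0.95 in F4MKO+FSTL1 vs F4MKO and 1.95 ± 0.83 in F4MKO+FSTL1 vs Flox, with 3 mice per group. Without F4MKO replicate 2, Mup7 stood at -2.49 ± 0.39 and 4.44 ± 0.44 in the comparisons with F4MKO.

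Mup1, which shares most of its sequence with Mup7, followed the same order at a lower level. It was at 86.5, 49.1 and 78.1 CPM in Flox and at 30.9, 2.76 and 26.1 CPM in F4MKO. In F4MKO+FSTL1 it was at 175, 289 and 240.0 CPM. Again no group overlapped another, and F4MKO replicate 2 was the lowest of all libraries. Its log2 fold change was -1.83 ± 0.57 for F4MKO vs Flox, 3.56 ± 0.61 for F4MKO+FSTL1 vs F4MKO and 1.72 ± 0.56 for F4MKO+FSTL1 vs Flox. Without F4MKO replicate 2 the first was -1.32 ± 0.26 and the second was 3.04 ± 0.28.

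Mup3, whose 150-base windows matched no other gene, was at 1136, 808 and 1077 CPM in Flox and at 318, 211 and 493 CPM in F4MKO. In F4MKO+FSTL1 it was at 1114, 1549 and 2187 CPM. F4MKO lay below both other groups without overlap, whereas F4MKO+FSTL1 replicate 1 fell inside the Flox range. The log2 fold changes of Mup3 were -1.56 ± 0.30 in F4MKO vs Flox, 2.25 ± 0.31 in F4MKO+FSTL1 vs F4MKO and 0.68 ± 0.30 in F4MKO+FSTL1 vs Flox. Leaving out F4MKO replicate 2 gave -1.31 ± 0.28 and 1.99 ± 0.29 for the comparisons with F4MKO.

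Mup21, the closest relative of Mup3, was at 67.0, 62.3 and 85.0 CPM in Flox, and at 23.5, 17.4 and 42.1 CPM in F4MKO. In F4MKO+FSTL1 it was at 55.5, 130.3 and 198 CPM, the widest spread of any group of this gene. F4MKO was again below both other groups, and replicate 1 of F4MKO+FSTL1 was below all Flox libraries. Its log2 fold changes were -1.37 ± 0.40, 2.21 ± 0.41 and 0.84 ± 0.39 in the same order of comparisons. The first and second were -1.13 ± 0.42 and 1.96 ± 0.44 without F4MKO replicate 2.

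Mup20, the darcin gene, differed from the other members. Its level was 1082, 657 and 1155 CPM in Flox and 429, 359.9 and 651 CPM in F4MKO. In F4MKO+FSTL1 it was 571, 604 and 847 CPM. F4MKO was below Flox without overlap, by a margin of few CPM, but F4MKO and F4MKO+FSTL1 overlapped, and so did F4MKO+FSTL1 and Flox. The log2 fold change of Mup20 was -1.01 ± 0.26 in F4MKO vs Flox, 0.49 ± 0.26 in F4MKO+FSTL1 vs F4MKO and -0.52 ± 0.26 in F4MKO+FSTL1 vs Flox. With F4MKO replicate 2 left out, Mup20 was at -0.84 ± 0.27 and 0.31 ± 0.26 in the comparisons with F4MKO.

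**Figure D1:**
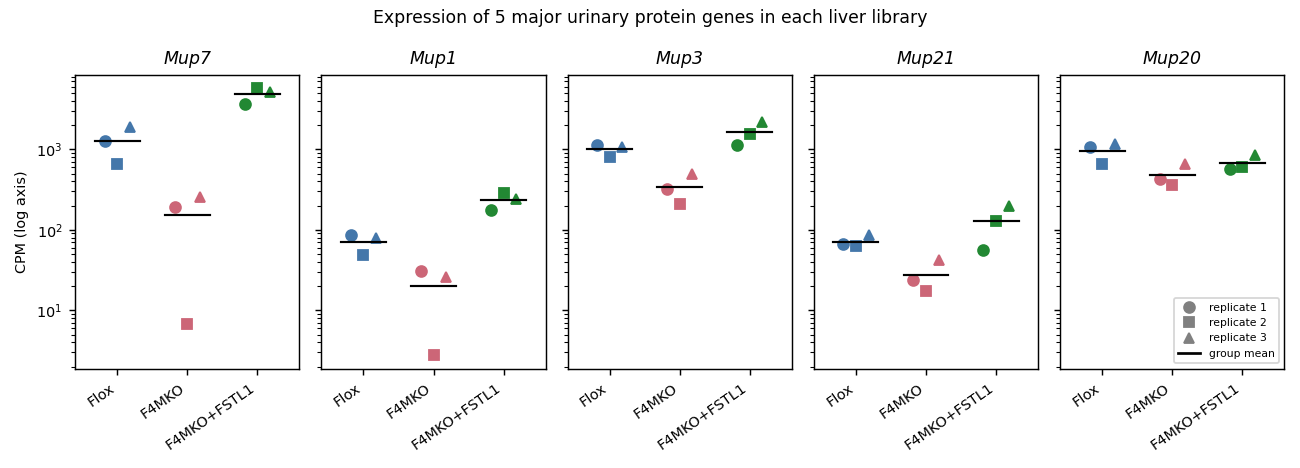
CPM of each member gene in the 9 libraries on a log axis, 1 panel per gene; symbols are replicates (mice) and black lines are group means. F4MKO lies below Flox in all 5 panels, down to 6.78 CPM for Mup7 in replicate 2, and F4MKO+FSTL1 lies above F4MKO without overlap in the panels of Mup7, Mup1, Mup3 and Mup21 but not in that of Mup20.

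As counts over the members, 5 of 5 were lower in F4MKO than in Flox with no overlap, which was so of 10% of all genes tested. None of the 5 was called lower at an adjusted p under 0.05 and a fold change over 1.5 in edgeR's quasi-likelihood test, and all 5 had an unadjusted p under 0.05. Over all genes, 10 were called lower (0.0695%) and 2424 had an unadjusted p under 0.05 in either direction, while DESeq2 called 2 of the 5, Mup3 and Mup20. The comparison F4MKO+FSTL1 vs F4MKO had 4 of 5 called higher, Mup20 being the exception, against 3.21% of all genes, and the same 4 did not overlap, against 18% of all genes. In F4MKO+FSTL1 vs Flox, 2 of 5 were higher without overlap (Mup7 and Mup1), against 7.44% of all genes, and none was called, by edgeR or by DESeq2, with 3 of the 5 at an unadjusted p under 0.05. There edgeR called 0.00695% of all genes in either direction and gave 1924 genes an unadjusted p under 0.05. Nothing is read from these counts, since the members were selected on such values, and the comparisons share libraries.

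Levels per kilobase of transcript set the genes beside each other, within a limit. They use the whole transcript length, and how reads with several matches were counted is not stated. Of the 150-base windows, 77.5% were shared for Mup7 and 82.5% for Mup1, but none for Mup3 or Mup21. The order of the genes below may therefore depend on how shared reads were counted. In Flox, Mup7 was at 1365 ± 664 CPM per kb (SD, n = 3), Mup20 at 1039.6 ± 290 and Mup3 at 1023 ± 178, and the ranges of these 3 overlapped. Mup21 at 105 ± 17.7 and Mup1 at 76.9 ± 21.2 CPM per kb were far lower, and their ranges also overlapped. In F4MKO the order was Mup20 at 517 ± 164, Mup3 at 346 ± 145, Mup7 at 164 ± 141, Mup21 at 40.8 ± 19.0 and Mup1 at 21.5 ± 16.2 CPM per kb, and each overlapped its neighbour in that order. In F4MKO+FSTL1, Mup7 led at 5264 ± 1204, followed by Mup3 at 1643 ± 548, Mup20 at 726 ± 162, Mup1 at 253 ± 61.7 and Mup21 at 189 ± 105 CPM per kb. There only Mup1 and Mup21 overlapped. Mup7 thus went from a level shared with Mup20 and Mup3 in Flox to the highest of the 5 in F4MKO+FSTL1.

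Ratios of 2 genes within a library do not depend on scaling between libraries. The count of Mup7 divided by that of Mup20 was 1.17, 0.989 and 1.63 in Flox. It was 0.446, 0.0189 and 0.397 in F4MKO, and 6.37, 9.58 and 6.16 in F4MKO+FSTL1. The groups did not overlap in this ratio. For Mup3 over Mup20, both counted from sequence largely of their own, the ratio was 1.05, 1.23 and 0.933 in Flox, 0.742, 0.586 and 0.757 in F4MKO and 1.95, 2.56 and 2.58 in F4MKO+FSTL1, again without overlap. The genes of the cluster thus differed between the groups by unequal amounts.

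The same shift shows in the share of all Mup reads that each gene took. Mup7 took 16.5% to 26.3% of the Mup reads in Flox, 0.902% to 10.2% in F4MKO and 30.5% to 42.9% in F4MKO+FSTL1. Mup20 took 16.1% to 17.3% in Flox, 22.4% to 47.8% in F4MKO and 4.48% to 5.91% in F4MKO+FSTL1. In F4MKO replicate 2 the share of Mup7 was 0.902% (95% Wilson interval 0.774% to 1.05%) and that of Mup20 was 47.8% (47.1% to 48.6%). Over the 45 shares of the 5 genes in 9 libraries, the widest interval reached 0.730 percentage points to either side. These intervals cover counting error only, and reads of the near-identical genes may be split between them.

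**Figure D2:**
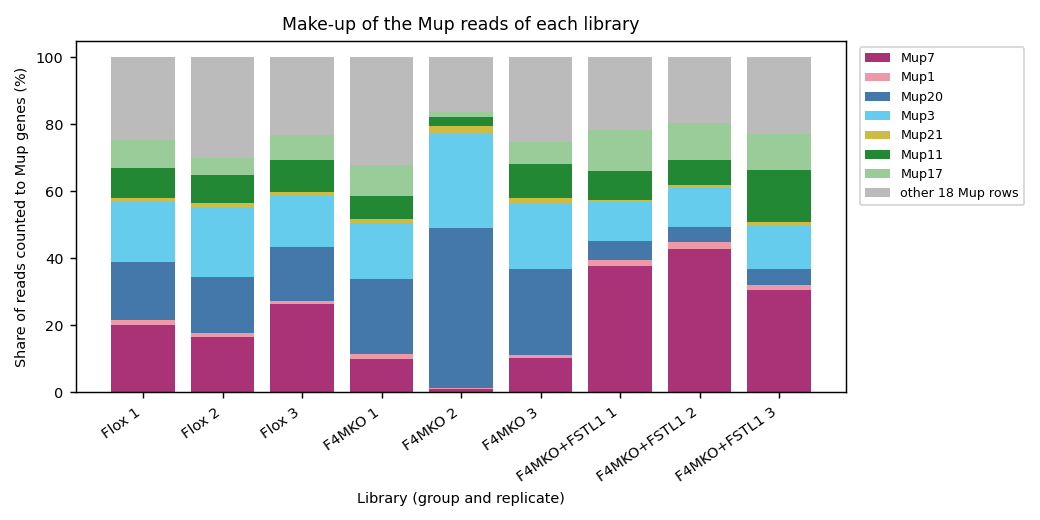
Percent of the reads counted to Mup genes that fell on each of 7 genes and on the other 18 Mup rows together, 1 stacked bar per library. The Mup7 share is 30.5% to 42.9% in F4MKO+FSTL1 and at most 10.2% in F4MKO, where the Mup20 share reaches 47.8% in replicate 2.

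Across the 9 libraries, the log2 CPM of Mup7 followed the mean of the other 4 members with a Pearson r of 0.97, and r was 0.97 for Mup3, 0.96 for Mup1, 0.91 for Mup21 and 0.66 for Mup20. These values describe 9 libraries of 3 groups that share their scaling, and Mup7 and Mup1 share reads. Outside the family, the genes whose log2 CPM ran closest to the mean of the 5 members were Zfp148 (r = 0.98), Sult2a8, Cadm4, Tspan33 and Gm16548, the last at 0.97. Zfp148 spanned only 24.3 to 31.3 CPM over the 9 libraries. Sult2a8, a male-biased hepatic sulfotransferase, ranged from 117 CPM in F4MKO replicate 2 to 1099 CPM in F4MKO+FSTL1 replicate 2. The genes running most against the members were Desi2 (r = -0.97), Slc39a4 (-0.96), a zinc importer, and Dopey2 (-0.96).

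The rest of the family bears on the members because reads can pass between rows. The table lists 25 Mup rows, of which 23 passed the filter. Mup4 and Mup6 did not, with at most 0.433 CPM in any library. The 18 tested rows that are not members were all lower in F4MKO than in Flox, with log2 fold changes from -2.67 to -0.49 and a median of -1.72. The median was -1.56 over the members and -0.003 over all genes tested. None of these 18 rows was called by edgeR in that comparison, where 0.0695% of all genes were called lower. In edgeR 15 of them had an unadjusted p under 0.05, and DESeq2 called 2.

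In F4MKO+FSTL1 vs F4MKO, the 18 rows ranged from 1.17 to 3.71 with a median of 2.67, against 2.25 over the members and 0.01 over all genes. Of them, 16 were called higher and 17 did not overlap, against 3.21% and 18% of all genes. The exceptions among the calls were Mup13, at 1.68 ± 0.70 and adjusted p = 0.111, and Mup5, at 2.61 ± 0.93 and adjusted p = 0.0673, a gene known from salivary gland that had at most 15.3 CPM here. Against Flox, 16 of the 18 rows were higher in F4MKO+FSTL1 and 11 of them did not overlap, which was so of 7.44% of all genes. In that comparison edgeR called 0 of the 18, against 0.00695% of all genes in either direction, and DESeq2 called 1. In edgeR 11 of the 18 had an unadjusted p under 0.05. The highest of the 18 were Mup11 and Mup17. Mup11 had 1607 ± 1071 CPM per kb in F4MKO+FSTL1 (SD, n = 3) and Mup17 had 1630 ± 367, against 148 ± 129 and 124 ± 97.2 in F4MKO. These rows share reads and are not independent of each other.

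Counting all listed Mup rows as 1 feature takes away the effect of reads placed on the wrong one of these rows. It does not restore reads that may have been left out because they match several genes. Nor does it hold reads placed on family genes that the count table does not list. Among these are Mup22, which shares 150-base windows with Mup7 and Mup1, and Mup-ps19, which shares them with Mup20. The summed Mup level was 6262, 3939.8 and 7152 CPM in Flox, 1916, 752 and 2534 CPM in F4MKO and 9661, 13487 and 17086 CPM in F4MKO+FSTL1. The groups did not overlap. The log2 fold change of the sum was -1.74 ± 0.38 in F4MKO vs Flox, 2.94 ± 0.40 in F4MKO+FSTL1 vs F4MKO and 1.21 ± 0.38 in F4MKO+FSTL1 vs Flox. Mup7, at 5.0, lay above the sum in the second comparison, and Mup20, at 0.49, far below it. Without F4MKO replicate 2, the sum was at -1.38 and 2.59 in the comparisons with F4MKO, the median over the 23 tested rows went from -1.68 to -1.30 and from 2.65 to 2.24, and 20 of the 23 rows were called higher in F4MKO+FSTL1 vs F4MKO with and without that library.

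**Figure D3:**
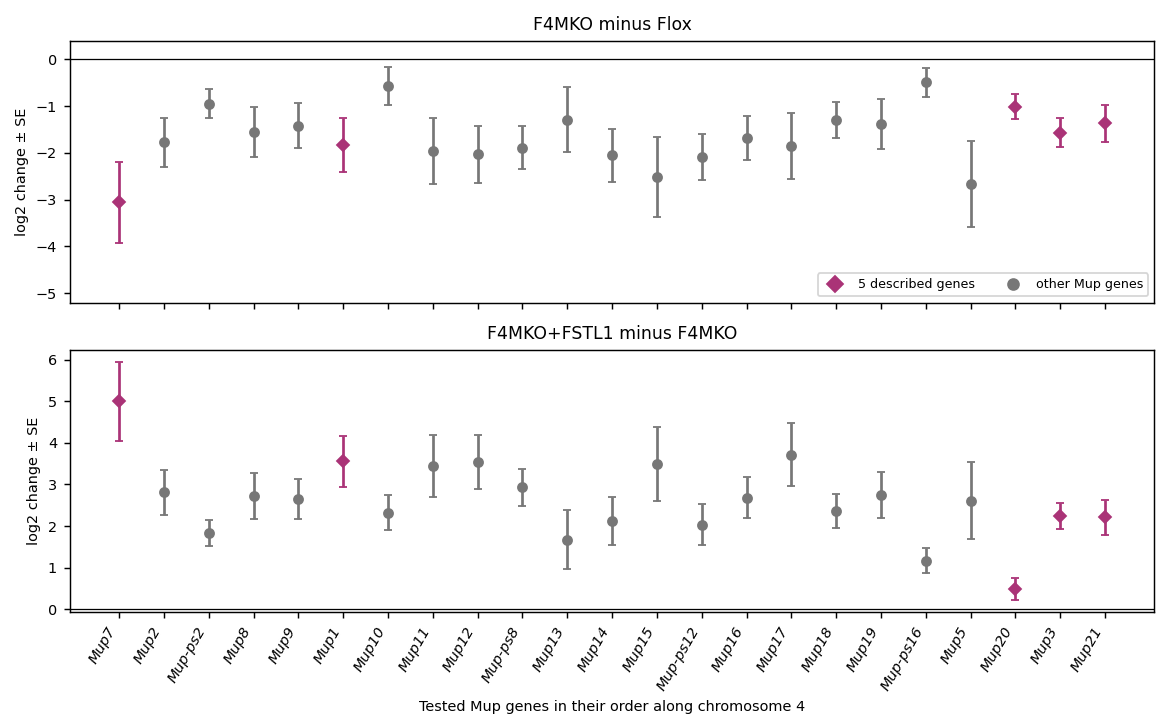
log2 fold change ± SE of the 23 tested Mup rows in their order along chromosome 4, for F4MKO minus Flox (top) and F4MKO+FSTL1 minus F4MKO (bottom); diamonds are the 5 members. All points are below 0 in the top panel and above 0 in the bottom panel, where Mup7 at 5.0 is the highest and Mup20 at 0.49 the lowest; both panels use the F4MKO libraries.

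The neighbours of the cluster were looked at for the same change. The cluster spans 2.19 Mb, and 22 genes outside the family that lie within 1 Mb of its ends were tested. Of these, 0 were called higher in F4MKO+FSTL1 vs F4MKO and 2 were called lower by edgeR's quasi-likelihood test, Ptgr1 at -1.63 ± 0.31 (adjusted p = 0.00501) and Bspry at -2.19 ± 0.69 (adjusted p = 0.0438). The median log2 fold change of the 22 was 0.08, and over all genes 3.21% were called higher and 11.2% lower. The 1 tested gene inside the cluster that is not a Mup gene, the long noncoding RNA Gm12909, was called higher at 0.95 ± 0.17 (adjusted p = 0.00429). These 3 genes were named after their values were seen, and the 22 flanking genes serve as a description only.

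Because hepatic Mup mRNA is a mark of the male pattern of liver gene expression, other sex-biased hepatic genes were followed from lists chosen with earlier results of these data known. Of 18 genes known to be higher in male liver, with no Mup gene among them, 10 rose in F4MKO+FSTL1 vs F4MKO and none fell, in the quasi-likelihood test of edgeR, adjusted over all genes, where 3.21% of all genes were called higher. Here and below, "rose", "fell" and "passed" mean an adjusted p under 0.05 together with a fold change over 1.5. Their median log2 fold change was 1.05. Hsd3b5, a steroid dehydrogenase of male liver, rose most, from 4.67, 0.126 and 0.599 CPM in F4MKO to 75.8, 155 and 50.8 CPM in F4MKO+FSTL1 (log2 fold change 5.64 ± 0.84, adjusted p = 0.00182). In Flox it was at 14.6, 10.9 and 39.5 CPM. The 3 groups did not overlap in Hsd3b5, in the order seen for Mup7.

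Serpina1e, an alpha-1-antitrypsin gene, rose by 3.15 ± 0.64 on the log2 scale (adjusted p = 0.00628), from 304, 142 and 957 CPM to 1882, 4865 and 5731 CPM. It belongs to a family of near-identical copies, so its count is uncertain in the way that of Mup7 is. Susd4 rose by 2.07 ± 0.56 (adjusted p = 0.0234), from at most 1.32 CPM in F4MKO. Slco1a1, an organic anion transporter, rose by 2.02 ± 0.39 (adjusted p = 0.00498). The other 6 that rose were Cyp7b1, Cyp2u1, Selenbp2, C4a, Keg1 and Egfr. Without F4MKO replicate 2, 5 of the 18 passed the test, and without F4MKO+FSTL1 replicate 2, 4 did.

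In F4MKO vs Flox, the 18 male-biased genes were all at negative values with a median of -0.87, but 0 passed edgeR's test, where 0.0695% of all genes were called lower and 0.202% higher. Of the 18, 11 had an unadjusted p under 0.05, and DESeq2 called 3. None passed in F4MKO+FSTL1 vs Flox, where 0 were called by edgeR or DESeq2, 4 had an unadjusted p under 0.05 and the median was 0.31. Of 27 genes known to be higher in female liver, 18 were tested, and 6 of them fell in F4MKO+FSTL1 vs F4MKO, where 11.2% of all genes were called lower. None rose. Cyp2a4 fell by 3.61 ± 0.80 on the log2 scale (adjusted p = 0.00976), from 37.9, 80.8 and 6.99 CPM to 2.20, 3.03 and 5.12 CPM, and Atp6v0d2 fell by 2.19 ± 0.36 (adjusted p = 0.00277). Cyp3a41b and Cyp3a16 fell by 2.05 ± 0.45 (adjusted p = 0.00928) and 1.81 ± 0.36 (adjusted p = 0.00576) at levels of at most 2.18 CPM, and Fmo2 and Cyp2a22 also fell. Whether reads of these female-biased genes match other genes was not tested. The median over the 18 was -0.73, and -0.21 without F4MKO replicate 2, when 5 passed. In F4MKO vs Flox 16 of the 18 had positive values and 0 passed edgeR's test, with 6 at an unadjusted p under 0.05 and 1 called by DESeq2.

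**Figure D4:**
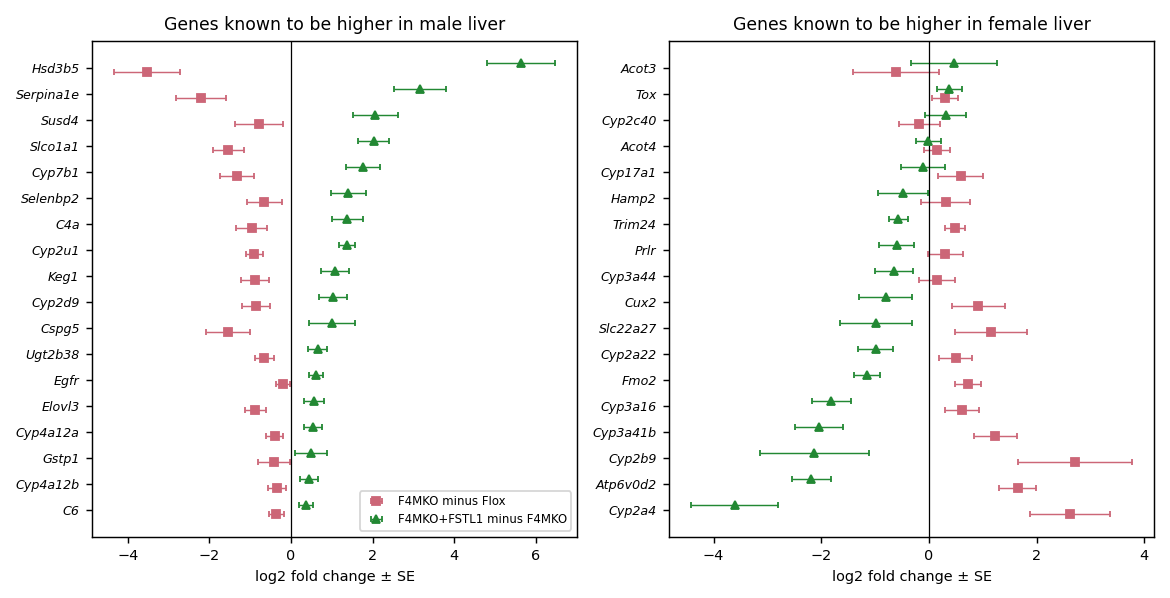
log2 fold change ± SE of 18 male-biased (left) and 18 tested female-biased (right) hepatic genes, squares for F4MKO minus Flox and triangles for F4MKO+FSTL1 minus F4MKO. Triangles are above 0 for all 18 male-biased genes, up to 5.64 for Hsd3b5, and below 0 for 15 of the 18 female-biased genes; both differences use the F4MKO libraries.

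Growth hormone signalling, the main known input to Mup transcription, was followed in 11 genes. Of these, 2 rose in F4MKO+FSTL1 vs F4MKO, where 3.21% of all genes were called higher. Ghr, the growth hormone receptor, went from 286, 294 and 330.3 CPM to 472, 514 and 423 CPM (log2 fold change 0.63 ± 0.11, adjusted p = 0.00400). Igfals, which carries IGF1 in blood and is induced by growth hormone, changed by 1.07 ± 0.27 (adjusted p = 0.0183). Igf1, the hepatic effector of growth hormone, was at 0.35 ± 0.12 (adjusted p = 0.0673).

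The signal transducers were at -0.18 ± 0.12 for Jak2, -0.38 ± 0.13 for Stat5a (adjusted p = 0.0563) and 0.01 ± 0.12 for Stat5b. The feedback inhibitors Cish, Socs1, Socs2 and Socs3 were at 0.28 ± 0.39, -0.30 ± 0.36, -1.05 ± 0.48 and -0.19 ± 0.34, and Bcl6, a repressor that opposes STAT5, at 0.39 ± 0.20; none of these passed the test. In F4MKO vs Flox, 0 of the 11 passed in edgeR or DESeq2 and 2 had an unadjusted p under 0.05, Ghr being at -0.43 ± 0.11 (adjusted p = 0.107). Without F4MKO replicate 2, 2 of the 11 still rose in F4MKO+FSTL1 vs F4MKO.

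Of 17 transcription factors and cofactors with a known part in hepatic or Mup expression, 2 rose in F4MKO+FSTL1 vs F4MKO, among them Cebpa at 0.66 ± 0.14 (adjusted p = 0.00823), and 3 passed without F4MKO replicate 2. With all libraries, 3.21% of all genes were called higher in that comparison. Zhx2, a regulator of Mup and other hepatic genes, was at 0.32 ± 0.11 (adjusted p = 0.0663). The median of the 17 was 0.27, and in F4MKO vs Flox 0 passed in edgeR or DESeq2, with 3 at an unadjusted p under 0.05.

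Other lipocalin genes were followed beside the Mup family. Of 16 lipocalin genes outside the Mup family, 9 were tested, and in F4MKO+FSTL1 vs F4MKO none rose past the fold threshold and 2 fell, the acute-phase genes Lcn2 at -1.46 ± 0.32 (adjusted p = 0.00922) and Orm2 at -1.0 ± 0.26 (adjusted p = 0.0182). The median of the 9 was 0.01, and over all genes 3.21% were called higher and 11.2% lower in this comparison. Rbp4, the carrier of retinol, was at 0.51 ± 0.14 (adjusted p = 0.0226), under the fold threshold. When F4MKO replicate 2 was left out, 10 of the 16 were tested, Lcn2 and Orm2 again fell, and Obp2a, which had not passed the filter on low counts with all libraries, rose by 3.26 ± 0.62 on the log2 scale (adjusted p = 0.00666).

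Markers of liver cell types moved with the same comparison. Of 9 tested hepatocyte markers, the cell type that makes the Mup proteins, 3 rose in F4MKO+FSTL1 vs F4MKO: Serpina1c at 1.21 ± 0.16, Apoa2 at 0.82 ± 0.16 and Serpina1a at 0.68 ± 0.15 (adjusted p = 0.00140, 0.00509 and 0.00981). Serpina1c and Serpina1a belong to the same gene family as Serpina1e, so their counts may be uncertain in the same way. Alb was at -0.08 ± 0.19, and 3.21% of all genes were called higher in this comparison. The summed level of the 9 was 80123 to 111728 CPM in F4MKO, 102200.4 to 117279 CPM in F4MKO+FSTL1 and 108722 to 117007 CPM in Flox, so it overlapped between the groups compared.

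Some markers of stellate cells, macrophages and cholangiocytes fell in F4MKO+FSTL1 vs F4MKO, where 11.2% of all genes were called lower. Of 10 stellate cell markers 6 fell, led by Col1a1, Col3a1, Hgf and Pdgfrb, and their sum went from 550.1 to 685 CPM in F4MKO to 280 to 387 CPM in F4MKO+FSTL1. Of 10 macrophage markers 5 fell, among them Lyz2, Cd68, Cd5l and Adgre1, with sums of 704 to 783 and 350.2 to 543 CPM. The macrophage markers Cd163, Timd4 and Marco were at 1.55 ± 0.59, 0.51 ± 0.40 and 0.08 ± 0.43 and did not pass. Of 6 tested cholangiocyte markers 4 fell, Spp1, Epcam, Krt7 and Krt19, with sums over 8 genes of 181 to 457 and 54.2 to 70.2 CPM. Spp1 and Epcam, 2 of the 6, rose in F4MKO vs Flox, where 0.202% of all genes were called higher. None of 10 endothelial or 6 tested lymphocyte markers passed in edgeR or DESeq2 in any of the 3 comparisons, with at most 2 and 3 at an unadjusted p under 0.05. Without F4MKO replicate 2, the markers that fell numbered 5 for stellate cells, 4 for macrophages and 5 of 7 tested for cholangiocytes. In the same setting 3 hepatocyte markers rose, as did the macrophage marker Cd163 at 2.73 ± 0.49 (adjusted p = 0.00563), which fell in F4MKO vs Flox by 3.08 ± 0.49 on the log2 scale (adjusted p = 0.0402), and 3 cholangiocyte markers, Krt19 besides Spp1 and Epcam, rose in F4MKO vs Flox. What part these shifts in marker levels have in the Mup values was not tested.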

How the data were processed

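Liver RNA of 9 mice was sequenced as 150-base paired-end reads on the BGISEQ-500. The values are the deposited counts of reads per gene, which the authors made with Trim Galore 0.6.7, HISAT2 2.2.1 (mm10) and featureCounts 2.0.1 and did not normalize. The annotation, strand setting and treatment of reads with several matches are not given in the sources used here. Samples were grouped by the labels. All 9 libraries entered 1 edgeR 4.0.16 fit (R 4.3.3; filterByExpr, minimum count 10 and total 15; TMM; quasi-likelihood test; p adjusted by Benjamini and Hochberg), and a gene was called at an adjusted p under 0.05 and a fold change over 1.5, the thresholds the study states. The standard error is the log2 fold change divided by the square root of F. Total counts were 20656976 to 24322984 per library. Each p-value sets a difference between groups against the spread between mice, with 3 mice per group, as estimated in the fit of all 9 libraries. Alternatives were DESeq2 1.42.0, its size factors, no filter, the 6 libraries compared, a replicate block, no fold threshold, each library left out, Mup rows left out of scaling and all Mup rows summed. The script was tested on simulated counts with known changes before use. Coding identities came from global alignment (Biopython) of principal transcripts.

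The members and all gene lists were chosen with earlier results of these data known. Named were the 5 members, the Mup rows by range, up to 4 called genes of each list with the largest fold change, all growth hormone and sex chromosome genes tested, and the 5 genes most like and 3 least like the members' mean. The 2 rows with date-like symbols were kept under made-unique names. No sample was left out. Some genes of the list of transcription factors and cofactors enter its counts and median but are not reported here by name.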

Additional observations from a re-analysis of the deposited data

How the results depend on the processing

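In F4MKO+FSTL1 vs F4MKO the same 4 members (Mup1, Mup3, Mup7 and Mup21) were called under each alternative that gives a call, which is a description since they were chosen on these values. In F4MKO vs Flox the number of members called went from 0 to 2 with DESeq2 (Mup3, Mup20), 5 with no filter and 3 with the replicate block (Mup3, Mup20, Mup21), and 0 to 1 with a library left out (Mup7 without F4MKO replicate 2, Mup3 without F4MKO replicate 3). In F4MKO+FSTL1 vs Flox it went from 0 to 1 with no filter (Mup1) and 0 to 1 with a library left out (Mup1, without F4MKO replicate 2). All genes called in F4MKO vs Flox, 39 in the main analysis, numbered 338 with DESeq2, 478 with no filter, 11 with only the 6 libraries compared, 134 with the replicate block and 0 to 100 with a library left out. Those in F4MKO+FSTL1 vs Flox, 1 in the main analysis, numbered 284 with DESeq2, 2 with its size factors, 379 with no filter, 0 with the 6 libraries, 15 with the replicate block and 0 to 101 with a library left out. Those in F4MKO+FSTL1 vs F4MKO, 2070 in the main analysis, numbered 1295 to 2216 with a library left out. Male-biased genes called in F4MKO vs Flox went from 0 to 3 with DESeq2, 10 with no filter, 1 with the block and 0 to 1 with a library left out, to 1 in F4MKO+FSTL1 vs Flox with no filter, and, in F4MKO+FSTL1 vs F4MKO, from 10 to between 4 and 11 with a library left out. Female-biased genes called in F4MKO vs Flox went from 0 to 1 with DESeq2, 4 with no filter and 0 to 2 with a library left out. The cause of these differences was not tested. Mup20 in F4MKO+FSTL1 vs Flox turned from -0.52 to 1.21 on the log2 scale when all Mup rows were summed, since the sum stands for all listed rows of the family.

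The replicate numbers were not taken as pairs in the main analysis, and whether they stand for pairs was not settled. Deviations of same-numbered libraries correlated at 0.08, 0.04 and 0.17 in F4MKO and Flox, 0.11, 0.09 and 0.30 in F4MKO+FSTL1 and F4MKO, and 0.001, -0.10 and 0.21 in F4MKO+FSTL1 and Flox. Among the Flox libraries, each F4MKO library correlated best with the one of its own number. Each F4MKO+FSTL1 library did so among the F4MKO libraries, but among the Flox libraries only replicate 3 of F4MKO+FSTL1 did. The best match in the other direction was not looked at.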
